A study of Mus musculus with 6 samples.

Results

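The muscle genes described here encode the sarcomeric myosin light chains, the kinase that phosphorylates them and the striated-muscle tropomyosins. They are 9 genes of the 24532 in the deposited table, taken by symbol alone: the regulatory light chains Mylpf and Myl2, the essential light chains Myl1, Myl3 and Myl4, the kinase Mylk2, and the tropomyosins Tpm1, Tpm2 and Tpm3. The libraries came from whole gastrocnemius, the large calf muscle, of 12-week-old C57BL/6 mice. The 3 control mice were USP21 flox/flox, entered under genotype as "Litter", and the 3 knockout mice were Ckmm-Cre; USP21 flox/flox. All 6 mice therefore carried the floxed alleles. The knockouts alone carried Cre, which the muscle creatine kinase promoter drives in striated muscle, so an effect of Cre itself and one of Usp21 loss cannot be told apart. Cells of whole muscle that do not use that promoter keep Usp21. The labels name no shared litters or days, and p-values measure only the spread between these samples.

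Force in a sarcomere comes from myosin heads pulling on actin. Each head is an end of a myosin heavy chain, and its lever arm is wrapped by an essential and a regulatory light chain. Phosphorylation of the fast regulatory light chain by the calcium and calmodulin dependent kinase Mylk2 raises the calcium sensitivity of force in fast fibres. On the thin filament, tropomyosin lies along actin and, with troponin, blocks or opens the myosin binding sites. Fast fibres use mainly Mylpf, Myl1 and Tpm1, slow fibres mainly Myl2, Myl3 and Tpm3, and Tpm2 is used by both. Mouse gastrocnemius is mostly fast, with a smaller slow compartment.

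Total counts ran from 48658436 to 67332846 per library, and the 9 genes together took 4.08% to 5.02% of them. Usp21 stood at 19.3, 19.3 and 19.2 CPM (CPM being counts scaled by library size and composition) in controls 1 to 3. It stood at 9.08, 7.19 and 7.47 CPM in knockouts 1 to 3, below every control (log2 fold change -1.28, edgeR adjusted p = 0.0355). The 8 listed skeletal muscle markers summed to 126832 to 151390 CPM in the controls and 145729 to 172732 CPM in the knockouts. Of 6 heart muscle markers 3, namely Nppa, Nppb and Myl7, had no read in any library, and the list summed to 1.39 to 14.97 CPM in controls and 6.03 to 21.6 CPM in knockouts. Myh6 made up most of it, at 0.893 CPM in control 3 and 6.03 CPM or more elsewhere, with Tnni3 at most 0.525 CPM and Ryr2 at most 0.257 CPM. Control 3 stood apart from the other libraries in its slow fibre genes, and results that rest on it are given with and without it.

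Promoter sequences are shown for Myl3 and Tpm3, slow-fibre genes that were both lowest in control 3, and for the abundant fast genes as the contrast. RefSeq's table for GRCm38.p6, the assembly called mm10, held promoters for 8 of the 9 genes, Mylk2 being the one without an entry. For Myl2 the entries start upstream of its annotated main transcript and are not shown. Each sequence runs 5′ to 3′ from 250 bases before to 50 bases after a transcription start. Capitals mark E-boxes (CANNTG, the core site of myogenic bHLH factors), MCAT elements (CATTCC) and CArG boxes, on either strand. The windows are chr9:110763428-110763727 (plus strand) for Myl3, chr3:90072401-90072700 (plus) for the upstream start of Tpm3, chr7:127211358-127211657 (plus) for Mylpf and chr1:66945007-66945306 (minus) for Myl1.
Myl3: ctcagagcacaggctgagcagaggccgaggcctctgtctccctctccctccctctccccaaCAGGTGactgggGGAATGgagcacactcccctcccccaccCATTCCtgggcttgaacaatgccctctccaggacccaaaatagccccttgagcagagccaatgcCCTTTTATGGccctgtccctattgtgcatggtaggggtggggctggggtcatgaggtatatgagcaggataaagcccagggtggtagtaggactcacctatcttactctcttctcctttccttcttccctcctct
Tpm3: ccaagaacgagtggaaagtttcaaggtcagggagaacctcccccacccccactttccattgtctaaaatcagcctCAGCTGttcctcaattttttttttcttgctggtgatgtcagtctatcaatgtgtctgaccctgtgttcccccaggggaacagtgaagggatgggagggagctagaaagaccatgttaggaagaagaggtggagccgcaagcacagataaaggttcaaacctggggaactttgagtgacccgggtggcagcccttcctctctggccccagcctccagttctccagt
Mylpf: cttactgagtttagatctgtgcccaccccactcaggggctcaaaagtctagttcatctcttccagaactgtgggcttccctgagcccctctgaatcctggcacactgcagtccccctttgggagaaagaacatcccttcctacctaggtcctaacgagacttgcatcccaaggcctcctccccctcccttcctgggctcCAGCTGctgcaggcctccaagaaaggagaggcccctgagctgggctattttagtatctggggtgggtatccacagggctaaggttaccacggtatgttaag
Myl1: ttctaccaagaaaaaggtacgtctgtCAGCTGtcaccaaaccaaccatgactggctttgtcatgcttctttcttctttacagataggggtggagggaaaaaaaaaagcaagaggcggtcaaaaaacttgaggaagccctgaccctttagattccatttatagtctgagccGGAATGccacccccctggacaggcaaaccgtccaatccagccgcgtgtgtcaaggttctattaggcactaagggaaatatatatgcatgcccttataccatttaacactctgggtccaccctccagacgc

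All 4 windows hold a single E-box, at position -189 in Myl3, -175 in Tpm3, -51 in Mylpf and -224 in Myl1, counted from the start site as +1. An E-box is common: 72.3% of the 32851 promoter windows in the table have at least 1. Myl3 also has a CArG box at -85, a motif found in 1.63% of windows, and MCAT elements at -177 and -149, a motif found in 14.7%. Myl1 has an MCAT element at -80. All positions are counted from the start sites of RefSeq's table. The GENCODE annotation puts the first base at 66945143 for the longer Myl1 transcript and at 110763646 for Myl3, upstream of those start sites. Counted from there, the positions in both genes would differ, and the Myl1 MCAT element would lie inside the transcript. A MEF2 motif was found in none of these windows, against 3.19% of all windows. The motifs do not overlap one another in these windows. These are matches of letters, and no measurement here bears on binding.

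The comparison of knockout with control asks how loss of Usp21 in muscle changes these transcripts. None of the 9 genes passed the test across all genes. At an edgeR quasi-likelihood adjusted p under 0.05, 0 of 9 were higher and 0 lower, where 0.0567% of the 14109 genes tested were called in either direction. DESeq2's Wald test and limma-voom also called 0 of the 9. Over all genes DESeq2 called 210 higher and 80 lower, and limma-voom 4 higher and 1 lower. At an unadjusted edgeR p under 0.05 the count was again 0 of 9, against 11.6% of all genes. For all 9 the control and knockout values overlapped, whereas the groups did not overlap for 17.3% of all genes. The 9 had 6 positive and 3 negative log2 fold changes with a median of 0.078, beside -0.0037 over all genes tested. A two-sided exact permutation test of each gene's log2 CPM gave p between 0.3 and 0.9 (n = 3 each), where 3 against 3 libraries cannot go below 0.1. All 9 passed the filter on low counts, the lowest count being 405.

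**Figure D1:**
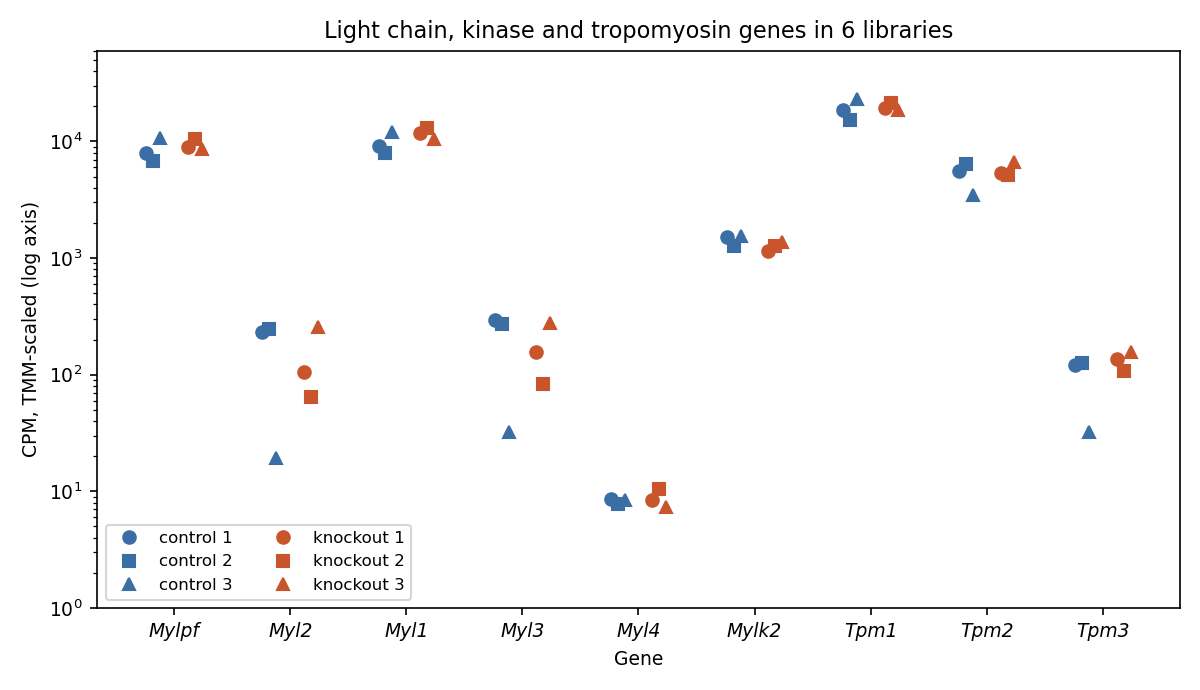
CPM of the 9 genes on a log axis, with circles, squares and triangles for replicates 1 to 3, controls in blue and knockouts in orange. The groups overlap for every gene, and the control 3 triangle lies far below the other points for Myl2, Myl3 and Tpm3.

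Mylpf (Entrez 17907; chr7:127208848-127214288, plus strand) encodes the fast regulatory light chain, the substrate of Mylk2. It stood at 7889, 6734 and 10779 CPM in controls 1 to 3, against 8936, 10532 and 8559 CPM in knockouts 1 to 3. Control 3 was the highest of all libraries and control 2 the lowest, so the knockouts lay inside the control range. The log2 fold change came to 0.14 (SE 0.19; adjusted p = 0.810). Without control 3 it was 0.35 (SE 0.13, adjusted p = 0.446).

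Myl2 (Entrez 17906; chr5:122092724-122113473, plus strand) encodes the regulatory light chain of slow fibres and of the heart ventricle. Its values were 231, 248 and 19.3 CPM in the controls and 105, 63.8 and 259 CPM in the knockouts. Control 3 was 12.9-fold below control 2, and knockout 2 was 4.06-fold below knockout 3, so both groups were split within themselves. The log2 fold change was -0.22 with a standard error of 0.85 (edgeR adjusted p = 0.942). It was -0.75 (SE 0.53, adjusted p = 0.632) without control 3, when the other controls both stood above knockouts 1 and 2 and below knockout 3.

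On the deposited FPKM scale, which divides by transcript length and so allows levels of different genes to be set side by side, Mylpf made up 95.97% to 99.8% of the regulatory pool in every library. The share of Myl2 was 3.23%, 4.03% and 0.203% in the controls and 1.32%, 0.686% and 3.33% in the knockouts. The mean share was 2.49% ± 2.02 (SD, n = 3) in controls and 1.78% ± 1.38 (SD, n = 3) in knockouts, a difference of -0.70 percentage points that is smaller than either spread. Control 3 weighs on this: without it the difference was -1.85 points, larger than the knockout SD, with knockout 3 still between controls 1 and 2.

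The essential light chains gave the same picture. Myl1 (Entrez 17901; chr1:66924295-66947932, minus strand), the fast essential light chain gene, stood at 9116, 8019 and 12028 CPM in the controls, against 11805, 12921 and 10593 CPM in knockouts. Of the 9 genes it had the second smallest unadjusted p, and control 3 was the control that reached the knockout values. The log2 fold change came to 0.28 (SE 0.17; adjusted p = 0.583). Without control 3 it was 0.46 (SE 0.12, adjusted p = 0.378), and every knockout then stood above both remaining controls. Without control 2 it was 0.15 (SE 0.17, adjusted p = 0.759). In the fit without control 3, Myl1 (unadjusted p = 0.00929, adjusted p = 0.378 in edgeR) and Mylpf (unadjusted p = 0.0351, adjusted p = 0.446) were the 2 of 9 genes higher at an unadjusted p under 0.05, where 5.58% of all genes were.

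Myl3 (Entrez 17897; chr9:110763678-110769802, plus strand) encodes the slow essential light chain, which the heart ventricle shares. It stood at 297, 272 and 31.9 CPM in the controls, against 156, 83.7 and 278 CPM in knockouts. As for Myl2, control 3 was the lowest library, followed by knockout 2 and knockout 1. The log2 fold change came to -0.21 (SE 0.75; adjusted p = 0.937), and -0.72 (SE 0.44, adjusted p = 0.582) without control 3. In the essential pool, Myl3 held 3.02%, 3.17% and 0.254% of FPKM in controls and 1.26%, 0.622% and 2.48% in knockouts. The difference in mean share was -0.69 percentage points with control 3 and -1.64 without it.

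Myl4 (Entrez 17896; chr11:104546017-104587215, plus strand) encodes the essential light chain of embryonic muscle and of the adult atrium, and was the least abundant of the 9. It stood at 8.56, 7.81 and 8.37 CPM in the controls, against 8.34, 10.4 and 7.39 CPM in knockouts, and held between 0.0671% and 0.0924% of the essential pool. Its log2 fold change came to 0.078 (SE 0.14; adjusted p = 0.871). Control 3, at 102% of the mean of controls 1 and 2, did not stand apart for this gene. Of 6 listed markers of immature fibres 4 were in the table, with a summed level of 590 to 626 CPM in the controls, against 697 to 984 CPM in knockouts. Nearly all of the sum was the perinatal heavy chain gene Myh8, at 576 to 616 and 687 to 977 CPM, which shares sequence with neighbouring heavy chain genes. For Myh8 the groups did not overlap, which in log2 CPM held for 17.3% of all genes. The groups overlapped for the other markers, with Myog at 4.199 to 7.85 and 3.94 to 6.63 CPM, the embryonic heavy chain Myh3 at 0.938 to 8.24 and 1.29 to 5.15 CPM, and Chrng at or under 0.242 CPM in every library. The part of these cells in the Myl4 values was not tested.

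Mylk2 (Entrez 228785; chr2:152911281-152923065, plus strand), the skeletal muscle light chain kinase, stood at 1506, 1268 and 1534 CPM in the controls, against 1144, 1270 and 1370 CPM in knockouts. Knockout 1 was the lowest library and control 2 lay just under knockout 2. The log2 fold change came to -0.19 (SE 0.11; adjusted p = 0.576), the smallest unadjusted p of the 9 genes at 0.142. It stayed negative in all 6 fits that left out 1 library, from -0.28 without control 2 to -0.13 without knockout 1. Without control 2 it had an unadjusted p of 0.0439 (edgeR adjusted p = 0.412), where 5.31% of all genes were lower at an unadjusted p under 0.05. On log2 of FPKM plus 1, limma gave -0.26 (SE 0.10) with an unadjusted p of 0.0388 and an adjusted p of 0.355, on a scale where 9.99% of all genes were lower at an unadjusted p under 0.05 and 3.38% higher.

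Of 11 genes of light chain phosphorylation, 10 passed the filter on low counts and 0 were called by edgeR, either after adjustment or at an unadjusted p under 0.05. Their median log2 fold change was 0.067, with 8 positive and 2 negative. The smallest p in the list belonged to Ppp1r12b, a targeting subunit of myosin phosphatase (log2 fold change 0.29, SE 0.14, edgeR adjusted p = 0.495), and Mylk, the smooth muscle kinase (0.14, SE 0.076, adjusted p = 0.523). Mylk4, a related striated muscle kinase named after its values were seen, stood at 2201 to 3050 CPM in the controls, against 2560 to 3158 CPM in knockouts.

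**Figure D2:**
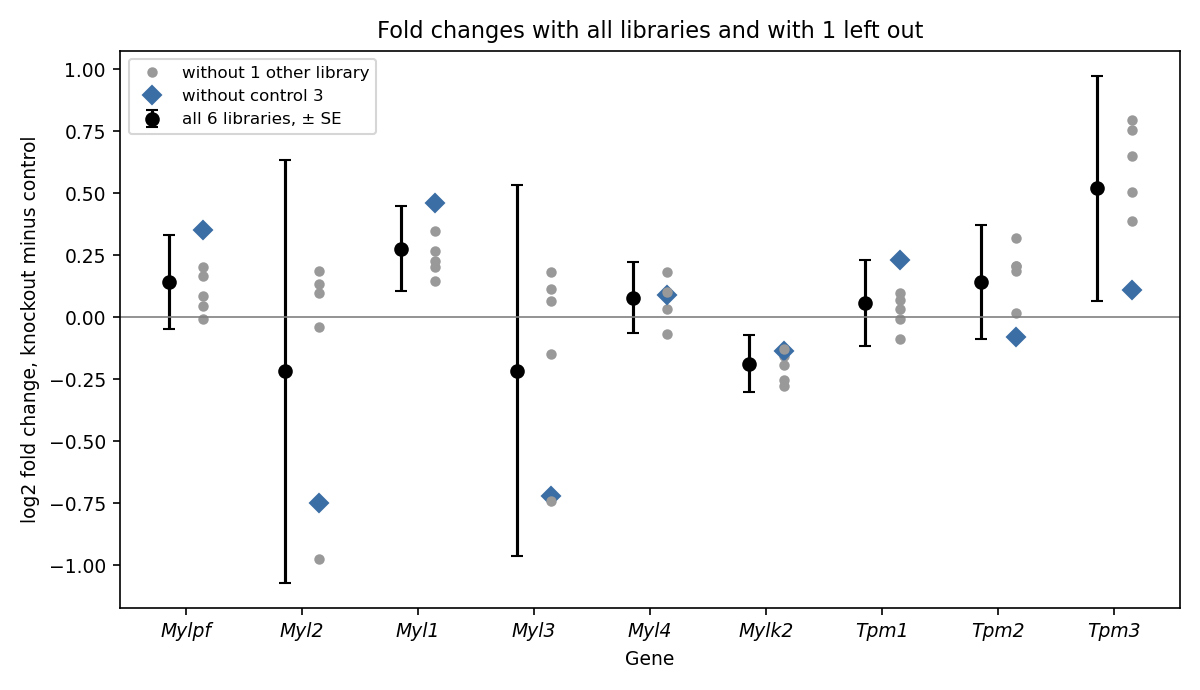
Log2 fold changes of the 9 genes (knockout minus control; black, with standard error, from all 6 libraries), beside the values when 1 library was left out, with the fit without control 3 as a blue diamond. Mylk2 stays below 0 and Myl1 and Tpm3 above 0 in every fit, and Myl2 and Myl3 have the widest error.

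Tpm1 (Entrez 22003; chr9:67022590-67049672, minus strand), the alpha tropomyosin of fast fibres, was the most abundant of the 9 genes. It stood at 18481, 15170 and 23227 CPM in the controls, against 19197, 21394 and 18581 CPM in knockouts. The knockouts lay inside the control range, and the log2 fold change came to 0.057 (SE 0.17; adjusted p = 0.927). Without control 3 it was 0.23 (SE 0.13, adjusted p = 0.562).

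Tpm2 (Entrez 22004; chr4:43513726-43523583, minus strand) encodes beta tropomyosin. It stood at 5637, 6400 and 3454 CPM in the controls, against 5314, 5153 and 6621 CPM in knockouts, with control 3 again the lowest library. Its log2 fold change came to 0.14 (SE 0.23; adjusted p = 0.850) and turned to -0.080 (SE 0.14, adjusted p = 0.857) without control 3.

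Tpm3 (Entrez 59069; chr3:90072651-90100902, plus strand) makes the slow muscle tropomyosin from some transcripts and cytoskeletal tropomyosins of many cell types from others. It stood at 121, 127 and 32.0 CPM in the controls, against 136, 108 and 157 CPM in knockouts. Its log2 fold change, at 0.52 the largest of the 9, had a standard error of 0.45 (edgeR adjusted p = 0.694). Without control 3 it was 0.11 (SE 0.16, adjusted p = 0.821) and without control 2 it was 0.80 (SE 0.51, adjusted p = 0.571).

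By FPKM, Tpm1 held 85.8% to 94.7% of the tropomyosin pool, Tpm2 5.27% to 13.5% and Tpm3 0.0779% to 0.695%. The share of Tpm2 rests on the transcript length behind its FPKM. Counts divided by FPKM and by library size give the mean transcript length the authors' values used, and for Tpm2 this was 3240 to 3244 bases, longer than the 1164 and 2098 bases that GENCODE gives its RefSeq transcripts. At 1164 bases its share would be 24.0%, 30.4% and 13.4% in controls and 22.3%, 20.0% and 26.9% in knockouts. At 2098 bases it would run from 7.91% in control 3 to 19.5% in control 2. Under all 3 lengths control 3 had the lowest share, and the group means differed by less than their spread. By deposited FPKM the difference in the share of Tpm2 was 0.083 percentage points, and -2.11 without control 3.

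Smooth muscle and pericytes also make tropomyosins. The summed level of 8 of their markers was 549 to 637 CPM in the controls, against 563 to 652 CPM in knockouts. The 5 fibroblast markers summed to 1117 to 1605 and 1575 to 1840 CPM in the same order, the 4 endothelial markers to 210.2 to 279.7 and 223 to 242 CPM, and the 4 macrophage markers to 29.2 to 51.2 and 30.03 to 46.7 CPM. The groups overlapped for each of these sums, but not for every single marker. Acta2, Col3a1 and Itgam were higher in every knockout than in every control, and Tek was lower. In log2 CPM the groups did not overlap for 17.3% of all genes. The part of these cells in the tropomyosin values was not tested. Nonmuscle Tpm4 stood at 36.4, 44.8 and 37.2 CPM in the controls, against 95.0, 77.3 and 44.2 CPM in knockouts (log2 fold change 0.87, SE 0.25, edgeR adjusted p = 0.339). It had the smallest p among 7 tested genes of other light chains and tropomyosins. The next was Myl6b, an essential light chain of nonmuscle and slow muscle myosin, at -0.41 (SE 0.13, adjusted p = 0.363). Of that list 0 were called after adjustment, 1 was higher and 1 lower at an unadjusted p under 0.05, where 6.56% of all genes were higher and 5.07% lower, and the median log2 fold change was 0.068.

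In order of FPKM, averaged over libraries, Tpm1 stood first of the 9 genes and at rank 4 of all genes in the table, followed by Myl1, Mylpf, Tpm2, Mylk2, Myl2, Myl3, Tpm3 and Myl4. Mylpf at 11269 ± 2297 FPKM and Myl1 at 11339 ± 1960 FPKM (SD, n = 3 controls each) differed by less than their spread, although Myl1 was the higher in 5 of 6 libraries, all but control 3. Myl2 at 258 ± 200 and Myl3 at 230 ± 169 FPKM in controls (SD, n = 3 each) also differed by less than their spread, with Myl2 the higher in 4 of 6 libraries. Mylk2, at 491 ± 35.3 FPKM in controls and 412 ± 39.9 FPKM in knockouts (SD, n = 3 each), was above both slow light chains in every library. Tpm3 was below them in every library, at 68.9 ± 46.5 FPKM in controls and 94.9 ± 24.5 FPKM in knockouts.

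The fast genes Mylpf, Myl1 and Tpm1 kept their ratio across libraries, and so, less closely, did the slow light chains Myl2 and Myl3. The SD over 6 libraries of the difference in log2 CPM was 0.070 for Mylpf and Tpm1, 0.085 for Mylpf and Myl1 and 0.13 for Myl1 and Tpm1, the smallest of the 36 pairs. For Myl2 and Myl3 it was 0.24, although each varied by an SD of 1.48 and 1.28 on its own. For Mylpf against Myl2 it was 1.70, the widest pair. Tpm3 was close to no other member, its smallest SD being 0.53 with Tpm2 and that with Myl3 being 0.66, and for Tpm2 the smallest was 0.42, with Myl4. Variation of this size is rare: the SD of Myl2 was at or above that of 99.1% of all tested genes, that of Myl3 98.3% and that of Tpm3 95.3%, while Mylk2 was at 40.6%.

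The log2 FPKM ratio of Myl2 to Mylpf stood at -4.91, -4.58 and -8.94 in the controls, against -6.22, -7.18 and -4.86 in the knockouts. Myl3 to Myl1 ran in parallel at -5.00, -4.93 and -8.62 in controls and -6.29, -7.32 and -5.30 in knockouts. Tpm3 to Tpm1 was at -7.38, -7.06 and -10.25 in controls and -7.36, -7.85 and -6.98 in knockouts. Knockouts 1 and 2 were thus less low in this ratio, which counts all Tpm3 transcripts, than in those of the light chains. Without control 3 the difference in mean between knockout and control was -1.34 for Myl2 to Mylpf, -1.33 for Myl3 to Myl1 and -0.18 for Tpm3 to Tpm1. With it, the differences were 0.054, -0.12 and 0.83. In bulk tissue, fewer fibres of a type and less RNA in each cannot be told apart.

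Other slow fibre genes moved with the slow members. The mean log2 CPM of 15 listed slow fibre genes was 7.12, 7.25 and 4.46 in controls and 6.72, 6.28 and 7.23 in knockouts, so control 3 was lowest by this mean and knockout 2 next. Control 3 was the lowest library for 14 of the 15 genes, followed by knockout 2 for 12 of them and knockout 1 for 2, Csrp3 and Mybpc1. The exception was Pln, at 1.88 CPM in control 3 and 1.67, 1.25 and 1.77 CPM in knockouts. Of the 15, edgeR called 0 after adjustment and 1 was lower at an unadjusted p under 0.05 (5.07% of all genes), with 7 positive and 8 negative changes and a median of -0.028. The smallest p belonged to Pln, which restrains the slow calcium pump (-0.69, SE 0.25, edgeR adjusted p = 0.383), and Csrp3, a Z-disc protein (-0.74, SE 0.72, adjusted p = 0.725). In control 3, Myl2 stood at 8.06% and Myl3 at 11.2% of the mean of controls 1 and 2, Tpm3 at 25.9% and Tpm2 at 57.4%. The slow heavy chain Myh7 stood at 2.36% and the slow troponins Tnni1, Tnnc1 and Tnnt1 at 3.89%, 4.59% and 6.05%. The fast members were above those controls, with Mylpf at 147%, Myl1 at 140%, Tpm1 at 138% and Mylk2 at 111%.

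**Figure D3:**
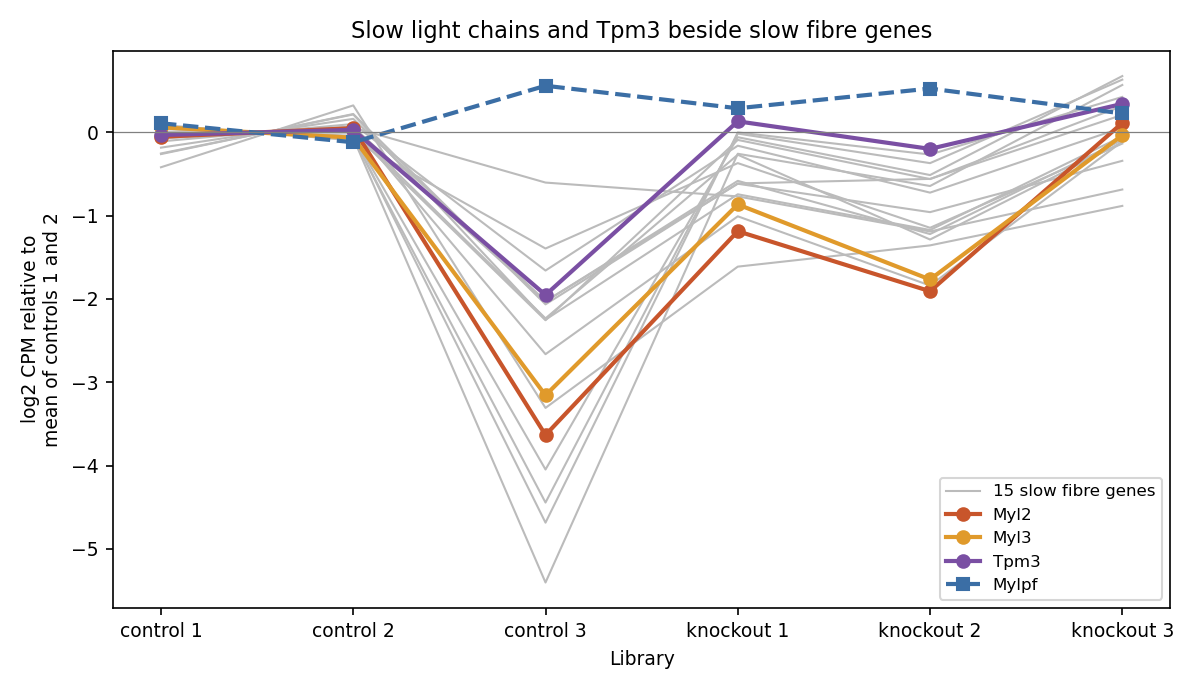
Log2 CPM of Myl2, Myl3, Tpm3 and Mylpf in each library relative to the mean of controls 1 and 2, over 15 slow fibre genes in grey, with lines only joining the points of a gene. Control 3 is low for Myl2, Myl3, Tpm3 and the grey lines but not for Mylpf, and in knockouts 1 and 2 the slow light chains Myl2 and Myl3 lie below Tpm3.

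Myl2 divided by Myh7 in CPM came to 0.786, 0.925 and 2.91 in the controls, against 0.447, 0.355 and 0.621 in the knockouts. Myl3 divided by Myh7 was 1.01, 1.02 and 4.82 in controls and 0.665, 0.466 and 0.667 in knockouts. For both light chains each knockout ratio was below all control ratios, the nearest control being control 1. Of all tested genes other than Myh7, 2.99% had a ratio that was lower in the knockouts without overlap. This was not particular to the light chains, since it also held for 7 of the other 14 listed slow fibre genes, namely Myoz2, Casq2, Ankrd2, Csrp3, Pln, Fhl1 and Mb, and for Myh2 and Myom3. Myoz2 divided by Myh7 was 0.581, 0.704 and 4.28 in controls and 0.380, 0.279 and 0.400 in knockouts, and myoglobin (Mb) was at 11.6, 13.9 and 132 and at 10.2, 8.53 and 8.05. Since Myh7 was itself lowest in control 3, ratios there were high for most genes, and 0.0% of genes had a ratio higher in every knockout than in every control. The ratios to Myh7 overlapped between the groups for Tpm3 (0.413, 0.473 and 4.83 in controls; 0.578, 0.601 and 0.377 in knockouts). They also overlapped for the other 7 slow fibre genes, the 3 slow troponins among them, with Tnnt1 at 0.259, 0.269 and 0.676 in controls and 0.303, 0.289 and 0.284 in knockouts. Ratios to Myh7 were chosen after the values were seen, and no test was made of them.

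**Figure D4:**
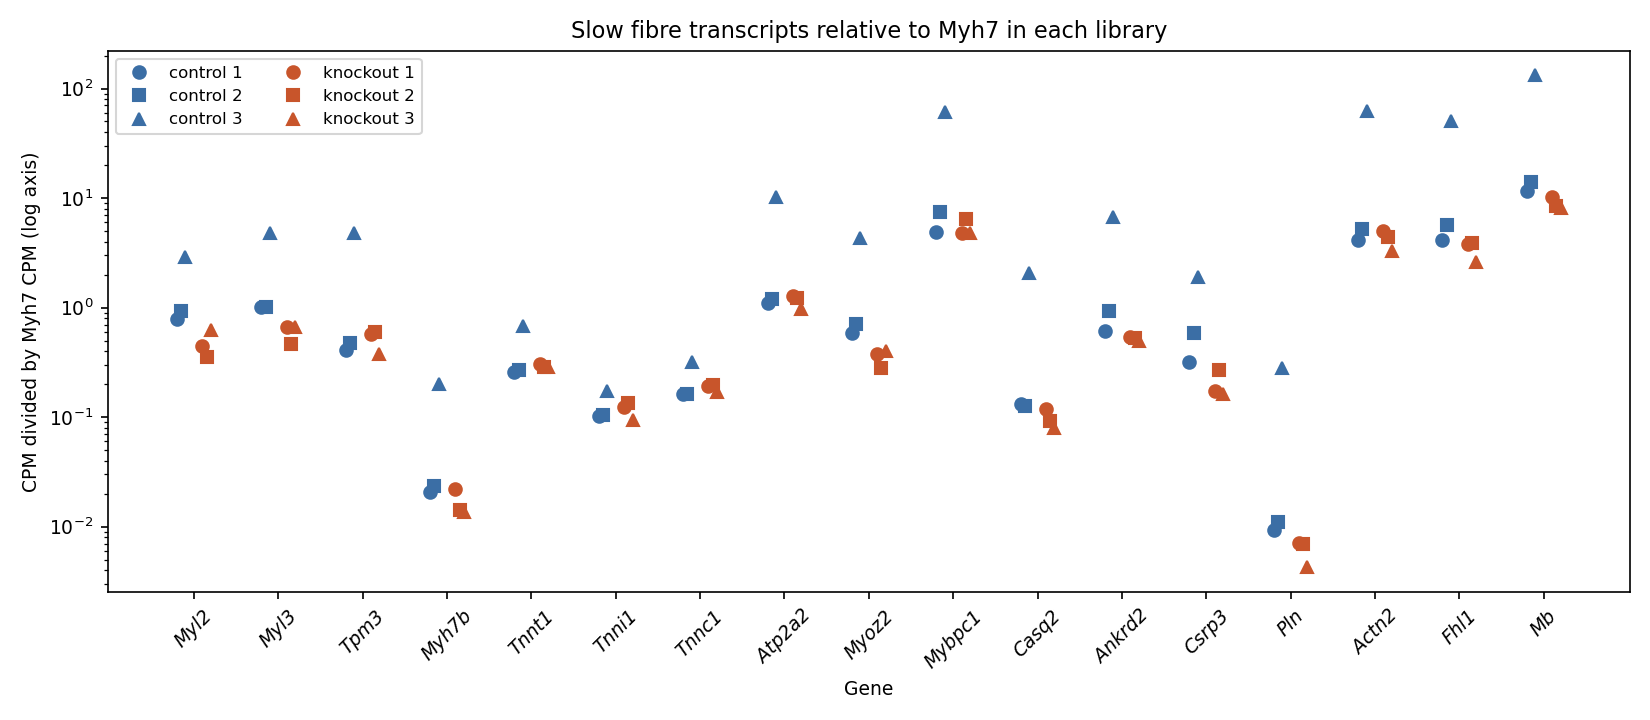
CPM of Myl2, Myl3, Tpm3 and 14 listed slow fibre genes divided by Myh7 CPM in the same library, on a log axis, with controls in blue and knockouts in orange. All knockout points lie below all control points for Myl2 (0.355 to 0.621 against 0.786 to 2.91) and Myl3, as for 7 of the 14 listed genes, and the groups overlap for Tpm3 and the slow troponins.

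Some of these genes make several transcripts, and the mean transcript length behind FPKM shows how their mix varied. For the single-transcript genes Myl2 and Mylk2 this length was constant, at 662 bases and at 2948 to 2949 bases in every library, near the annotated 662 and 2951 bases. Myl3 and Myl4 were also constant, at 898 to 899 and 883 to 884 bases, against an annotated 937 and 879 bases. Of 8770 single-transcript genes, 55.9% to 56.8% were within 2% of the annotated length, depending on the library. For Tpm1, with 10 RefSeq transcripts of 887 to 2890 bases, the mean length was also constant at 1212 to 1213 bases. For Tpm3 it was 1322, 1352 and 2032 bases in controls and 1411, 1413 and 1293 bases in knockouts, so control 3 stood apart.

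Tpm3 transcripts fall into a short class of 1090 and 1139 bases and a long class of 2190 to 2233 bases. Taking each class at its mean length, the short class made up 81.2%, 78.4% and 16.8% of Tpm3 molecules in controls and 73.2%, 72.9% and 83.8% in knockouts. In estimated FPKM the short class stood at 75.6, 77.1 and 2.57 in controls and 69.2, 51.4 and 100.2 in knockouts. The long class stood at 17.5, 21.2 and 12.7 in controls and 25.4, 19.1 and 19.3 in knockouts. Control 3 thus had 3.36% of the short class and 65.5% of the long class of the other controls. With the lowest and highest annotated lengths, the control 3 value of the short class was 2.19 and 2.80. Each class holds transcripts from the upstream and from the internal start, and the estimate does not separate them.

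Myl1 makes the long light chain MLC1f from an upstream promoter and the shorter MLC3f from an internal one. From transcripts of 1082 and 803 bases, the longer made up an estimated 20.7%, 22.4% and 20.8% of Myl1 molecules in controls and 22.7%, 23.4% and 24.8% in knockouts. Every knockout was above every control, by as little as 0.28 percentage points, where the mean length did so for 4.62% of the 4873 tested genes with several transcripts. In estimated FPKM the longer transcript stood at 2230, 2183 and 2819 in controls and 3042, 3210 and 2959 in knockouts. These values are Myl1 FPKM times the same share, so they are not a separate result. The groups did not overlap, and how often this holds over all genes on this scale was not counted. The shorter stood at 8530, 7549 and 10704 in controls and 10348, 10523 and 8985 in knockouts, with overlap. The shares rest on GENCODE's lengths and on how the authors' software divided shared reads, so the share itself is less certain than its order among libraries. For Mylpf, with transcripts of 766 and 653 bases, the mean length was constant at 755 bases, as it was for the single-transcript genes. No share of its transcripts was therefore read from it.

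**Figure D5:**
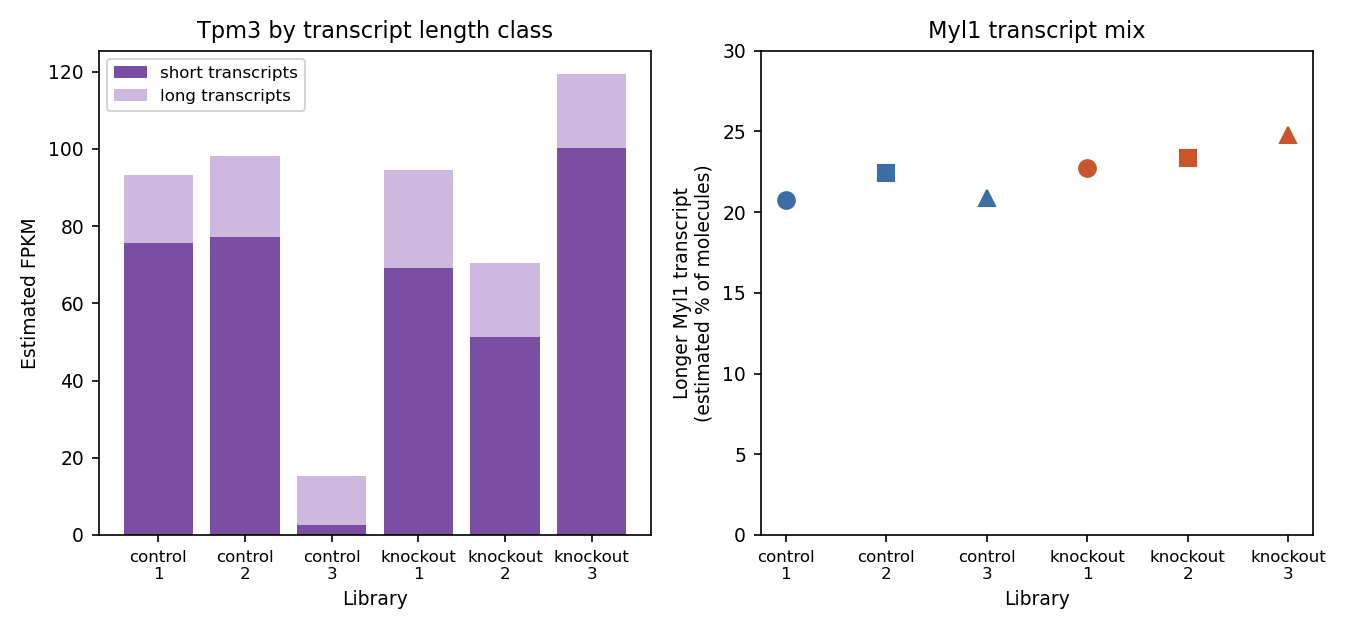
Left, estimated FPKM of short and long Tpm3 transcripts, stacked for each library. Right, the longer Myl1 transcript as an estimated percentage of Myl1 molecules, controls in blue and knockouts in orange. Control 3 lacks most of the short Tpm3 class (2.57 FPKM), and for Myl1 the knockouts lie at 22.7% to 24.8% against 20.7% to 22.4% in controls.

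Among 7730 other genes with a mean of at least 10 CPM, those with the profile closest to Myl2 over the 6 libraries were Myom3, Myoz2, Myh6, Prune2 and Csrp3. Closeness was the root mean square difference of centred log2 CPM, from 0.33 for Myom3 to 0.54 for Csrp3. Myom3, an M-band protein, stood at 103, 131 and 13.1 CPM in the controls, against 58.8, 50.8 and 106 CPM in knockouts. Myoz2, a Z-disc protein of slow fibres, stood at 171, 188 and 28.3 CPM in the controls, against 89.3, 50.2 and 166 CPM in knockouts. Myh6 lies next to the near-identical Myh7, with which reads may be shared.

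For Mylpf the closest genes were Lrrfip1, Pvalb, Sort1, Pgm2 and Gpd1, at differences of 0.034 to 0.049. Pvalb, the calcium buffer of fast fibres, stood at 7759, 6743 and 10316 CPM in the controls, against 8346, 10471 and 8048 CPM in knockouts. For Mylk2 they were Arfip2, Trim11, Smarcd2, Smim7 and Hook1, at differences of 0.029 to 0.044. A gene with little variation has many close profiles, so the distances of the 3 lists are not comparable.

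For 13 listed fast fibre genes the log2 fold changes had a median of 0.065, with 8 positive, and edgeR called 0 after adjustment and 0 at an unadjusted p under 0.05. The smallest p belonged to Myoz3, a Z-disc protein (0.26, SE 0.12, edgeR adjusted p = 0.473), and Myh4, the fastest heavy chain (0.37, SE 0.19, adjusted p = 0.516). Not all genes of the list were high in control 3. Myh2, the heavy chain of fast oxidative fibres and named after its values were seen, stood at 4460, 4711 and 1193 CPM in the controls, against 3243, 2182 and 4697 CPM in knockouts, with control 3 lowest and knockout 2 next, as for Myl3. The fast heavy chain Myh1, also named after its values were seen, had the same order. It stood at 5063, 7230 and 1952 CPM in the controls, against 5084, 4429 and 7172 CPM in knockouts. For every other gene of the list, control 3 stood above the mean of controls 1 and 2.

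Thin filament partners of tropomyosin had a median of 0.14 over 14 genes, 11 positive, with 0 called after adjustment and 2 higher at an unadjusted p under 0.05, against 6.56% of all genes. These were Neb, the nebulin ruler along actin, at 4813 to 4915 CPM in the controls, against 5699 to 6280 CPM in knockouts (0.32, SE 0.096, edgeR adjusted p = 0.343), and Actc1, cardiac actin, at 65.0 to 287 and 277 to 637 CPM (1.47, SE 0.54, adjusted p = 0.383). Thick filament partners had a median of 0.24 over 9 genes, 7 positive, with 0 called after adjustment and 3 higher at an unadjusted p under 0.05, against the same 6.56%. The smallest p belonged to Myom2, an M-band protein of fast fibres, at 1416 to 1690 CPM in the controls, against 1873 to 2289 CPM in knockouts (0.43, SE 0.11, adjusted p = 0.312), and to the chaperone Hsp90aa1 (1.06, SE 0.38, adjusted p = 0.376).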

How the data were processed

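Poly(A)-selected RNA of 6 gastrocnemius muscles was sequenced with a strand-preserving kit, per the labels' protocols. The deposited table gives, per RefSeq gene, read counts (unnormalized), FPKM and TPM, all made by the authors and named so per the file headers. The build was mm10, and the tools named, per the submitters' processing notes, include StringTie 1.3.4d and Bowtie2 2.3.4.1. What each tool did, and whether counting used strand, is not given in the sources used here. Replicates of a group differed by more than sampling noise (chi-square over its degrees of freedom at least 34.9).

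The counts of all genes were tested with edgeR 4.0.16 in R 4.3.3: filterByExpr (minimum count 10), which left 14109 genes, TMM, quasi-likelihood F test, and adjusted p (Benjamini-Hochberg) under 0.05 as the threshold. Standard errors came from the F statistic, with a prior count of 2 for log2 CPM. A count of 0 allows up to 3 counts, or 0.0454 to 0.0598 CPM, for counting error only. The test was checked on simulated counts. FPKM served to compare genes per length. Counts divided by FPKM and library size gave the mean transcript length, scaled by the median over 8770 single-transcript genes against GENCODE M21; this step was chosen after the data were seen.

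The members and gene lists were chosen with earlier results of these data known. Named genes are the 9 members, of each list the genes called or else the 2 with the smallest p, and for Myl2, Mylpf and Mylk2 the 5 closest profiles; others are said to be chosen after their values were seen, which also holds for Myh7, the genes given as ratios to it, the slow troponins and the marker genes named. Alternatives were DESeq2 1.42.0, limma 3.58.1 (voom, and a trend on log2 FPKM plus 1 or 0.1), other scalings, no filter, a replicate term and leaving out each library.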

Additional observations from a re-analysis of the deposited data

How the results depend on the processing

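None of the 9 genes was called in any of 14 alternative fits: 126 adjusted p-values ran from 0.351 to 0.997, and 107 log2 fold changes kept their direction. The 19 that turned were each smaller than their standard error. Myl2 was at 0.21 with limma-voom, 0.14 and 0.15 with limma on FPKM plus 1 and plus 0.1, 0.097 without control 1, 0.19 without control 2 and 0.13 without knockout 2. Myl3 was at 0.15, 0.087, 0.093, 0.18, 0.065 and 0.11 in the same fits. Myl4 was at -0.0049 and -0.0061 with FPKM plus 1 and plus 0.1 and -0.067 without knockout 2. Tpm1 was at -0.090 without control 2 and -0.0061 without knockout 2, Mylpf at -0.0081 without control 2 and Tpm2 at -0.080 without control 3. When 1 library was left out, the values reached 0.35 for Mylpf (without control 3), -0.97 for Myl2 and -0.74 for Myl3 (without knockout 3), 0.18 for Myl4 (without knockout 3), 0.23 for Tpm1 (without control 3), 0.32 for Tpm2 and 0.80 for Tpm3 (without control 2). Myl1 was lowest at 0.15, without control 2. The cause was not tested.

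Over all genes, 5 were called higher and 3 lower. DESeq2's Wald test called 210 and 80, limma on FPKM 1 and 0 with either pseudocount, and limma-voom 4 and 1. Leaving out single libraries gave 1 to 120 higher and 0 to 21 lower, the largest counts without knockout 3. The replicate block called 0 and 0, and same-numbered libraries did not deviate together (correlations -0.0082, -0.19 and -0.098), so the labels' numbers are not treated as pairs.

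The difference in pool share between knockout and control moved by less than 1 SD with TPM or without single libraries. That SD pools the spread within both groups over all 6 libraries, at 1.73 points for Myl2 and 1.34 for Myl3. Control 3 itself widens it, so staying within 1 SD does not show that the difference is stable. With all 6 libraries the difference was -0.70 points for Myl2 and -0.69 for Myl3. Without single libraries it ran from -1.85 to 0.065 percentage points for Myl2 and from -1.64 to -0.18 for Myl3, the lowest values without control 3 and the highest without control 2. The log2 ratio of Myl2 to Mylpf differed between the groups by -1.34 to 0.84, of Myl3 to Myl1 by -1.33 to 0.51 and of Tpm3 to Tpm1 by -0.18 to 1.42 over the same fits. Depth was ample for these genes, the lowest count being 405, and the standard errors mostly reflect the spread between libraries.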
